A study of Homo sapiens with 6 samples.

Results

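Genes with symbols of the form LINC and a number are long intergenic non-coding RNAs that carry a catalogue number in place of a functional name. They were followed here in HepG2 cells, a human hepatocellular carcinoma line that keeps many hepatocyte traits, given ellagic acid (EA), a plant polyphenol. The 157 members were chosen by their read counts, as the LINC-named genes with at least 100 reads summed over 6 libraries, out of 1776 LINC-named genes and 52408 genes in the count table. Of the other LINC-named genes, 979 (55.1%) had 0 reads in every library and 640 (36.0%) had between 1 and 99 reads. The table classed 130 members as lincRNA, 10 as antisense, 7 as processed transcripts and 1, LINC00854, as protein-coding, and the rest mostly as transcribed pseudogenes. The groups were 3 libraries of cells kept for 24 h with EA at 50 µM and 3 libraries of cells kept for the same time with the solvent DMSO; the cells of both groups came from the same line and carried no other labelled treatment. Which signalling pathways EA targets in these cells is the question the series title names.

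Long intergenic non-coding RNAs are mostly transcribed by RNA polymerase II, capped, spliced and polyadenylated like messenger RNAs, but they are usually less abundant and more restricted to particular cell types. Some act near their own gene, where transcription of the locus or the RNA itself changes the activity of a neighbour, while others bind proteins, chromatin or microRNAs elsewhere in the cell. In liver and liver cancer, several have been studied as markers of hepatocyte identity or as factors of growth, and most of the catalogue has no described role.

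The promoters of 8 members are shown because these genes carry the widest differences or the roles described below. RefSeq's table held a start region, 250 bases before and 50 after the annotated start, for 108 of the 157 members. Coordinates are on GRCh38.p14, whereas the reads had been counted on hg19. In each sequence, written 5′ to 3′ on the strand of the gene, capitals mark the letters TGANTCA, the core of AP-1 sites, and TATAAA, the core of a TATA box, on either strand. A match describes the letters only and is not evidence of a bound factor. The first 5 belonged to genes higher with EA.
LINC01705: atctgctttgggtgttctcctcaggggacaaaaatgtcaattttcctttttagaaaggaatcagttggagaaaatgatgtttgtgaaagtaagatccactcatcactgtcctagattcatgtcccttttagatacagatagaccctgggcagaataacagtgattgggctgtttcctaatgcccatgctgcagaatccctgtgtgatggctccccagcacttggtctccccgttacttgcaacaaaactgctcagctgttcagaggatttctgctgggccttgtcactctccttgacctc
LINC02404: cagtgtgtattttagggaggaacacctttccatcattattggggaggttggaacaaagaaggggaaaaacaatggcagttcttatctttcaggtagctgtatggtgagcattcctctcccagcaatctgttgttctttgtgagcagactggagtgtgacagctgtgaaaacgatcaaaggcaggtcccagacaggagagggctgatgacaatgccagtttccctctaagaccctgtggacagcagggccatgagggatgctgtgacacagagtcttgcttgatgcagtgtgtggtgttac
LINC02407: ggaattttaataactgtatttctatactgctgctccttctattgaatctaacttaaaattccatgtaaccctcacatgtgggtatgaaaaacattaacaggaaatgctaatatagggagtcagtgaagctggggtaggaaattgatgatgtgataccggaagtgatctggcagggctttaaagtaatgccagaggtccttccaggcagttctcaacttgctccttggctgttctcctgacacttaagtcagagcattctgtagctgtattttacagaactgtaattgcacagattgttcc
LINC01322: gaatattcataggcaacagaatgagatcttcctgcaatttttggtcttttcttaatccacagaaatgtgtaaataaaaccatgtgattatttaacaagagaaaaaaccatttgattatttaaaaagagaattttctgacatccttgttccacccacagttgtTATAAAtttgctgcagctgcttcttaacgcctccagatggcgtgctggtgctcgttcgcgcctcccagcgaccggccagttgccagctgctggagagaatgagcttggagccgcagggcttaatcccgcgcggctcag
LINC00346: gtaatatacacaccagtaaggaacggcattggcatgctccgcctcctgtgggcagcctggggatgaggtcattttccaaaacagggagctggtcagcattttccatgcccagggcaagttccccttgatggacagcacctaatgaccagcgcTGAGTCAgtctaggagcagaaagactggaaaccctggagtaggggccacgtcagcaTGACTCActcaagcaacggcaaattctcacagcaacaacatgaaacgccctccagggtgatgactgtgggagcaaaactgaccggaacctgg
The region of LINC01705 lay at chr1:222059344-222059643 on the minus strand and that of LINC02404 at chr12:91876878-91877177 on the plus strand. The region of LINC02407, named LNCOG in RefSeq, lay at chr12:76259633-76259932 on the plus strand. None of these 3 held either set of letters. The region of LINC01322, at chr3:165206698-165206997 on the plus strand, held TATAAA at -88 from the annotated start. The region of LINC00346, named PRECSIT in RefSeq, lay at chr13:110870259-110870558 on the minus strand and held AP-1 letters at -98 and -42.

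The next 3 promoters belonged to genes lower with EA.
LINC00261: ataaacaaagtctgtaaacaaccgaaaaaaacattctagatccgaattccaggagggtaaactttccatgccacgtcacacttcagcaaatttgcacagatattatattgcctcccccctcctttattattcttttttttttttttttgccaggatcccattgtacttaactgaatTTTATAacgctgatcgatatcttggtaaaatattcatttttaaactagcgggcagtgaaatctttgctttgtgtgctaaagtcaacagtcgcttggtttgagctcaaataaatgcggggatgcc
LINC00242: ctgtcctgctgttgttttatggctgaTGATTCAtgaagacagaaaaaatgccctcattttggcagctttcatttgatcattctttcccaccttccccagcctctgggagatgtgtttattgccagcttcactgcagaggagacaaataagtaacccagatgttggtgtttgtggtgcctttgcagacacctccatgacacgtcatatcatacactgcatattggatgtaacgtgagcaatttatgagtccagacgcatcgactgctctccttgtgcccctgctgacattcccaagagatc
LINC01091: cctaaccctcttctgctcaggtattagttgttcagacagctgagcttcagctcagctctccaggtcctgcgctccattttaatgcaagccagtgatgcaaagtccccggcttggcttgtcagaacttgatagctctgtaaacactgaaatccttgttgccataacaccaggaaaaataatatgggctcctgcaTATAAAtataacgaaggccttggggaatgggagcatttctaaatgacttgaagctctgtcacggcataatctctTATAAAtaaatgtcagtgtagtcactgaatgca
The region of LINC00261, at chr20:22578593-22578892 on the minus strand, held TATAAA on the other strand at -74. The region of LINC00242, at chr6:169798776-169799075 on the minus strand, held AP-1 letters at -224. The region of LINC01091, at chr4:123649741-123650040 on the plus strand, held TATAAA at -57 and again at 17.

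Across the members with a RefSeq start region, TGANTCA was present in 6 of 48 members called higher with EA (12.5%), in 7 of 40 called lower (17.5%) and in 4 of 20 not called (20%). Of all 35116 promoters in the table, 2707 (7.71%) held it. TATAAA was present in 7 of 48 members called higher (14.6%) and in 5 of 40 called lower (12.5%), and in 11.5% of all promoters. The letters GGAATG of TEAD sites, ACGTG of HIF sites, CCAAT and TGACGTCA of CRE sites were searched in the same way on both strands, and matches of different letters were allowed to overlap. GGAATG was present in 14.6% of members called higher, 15% of those called lower and 14% of all promoters. ACGTG was present in 25% of each called class and in 21.4% of all promoters. CCAAT was present in 39.6% of members called higher, 32.5% of those called lower, 65.0% of those not called and 34.6% of all promoters. TGACGTCA was present in 2 of 48 members called higher, 0 of 40 called lower and 1.85% of all promoters. The median GC content was 50.3% for members called higher, 58.3% for those called lower, and 58.7% for all promoters.

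The EA libraries held 15738089, 18891478 and 19202292 reads assigned to genes, against 25973621, 22987425 and 25500940 in the DMSO libraries. Nothing in the labels shows that the 3 libraries of a group were grown apart, so every p below reflects the spread among these libraries, possibly a technical one. The first principal component, 94.3% of the variance, separated EA from DMSO libraries, and EA replicate 3 stood apart from the other EA libraries on the second, 2.49%. Of 8 hepatocyte genes, 7, among them ALB, AFP and APOB, were lower with EA and 1, APOA1, was higher. Their summed level was 13320 to 13878 CPM (counts scaled to library size) in EA libraries and 50884 to 53761 CPM in DMSO libraries, and without APOB 9894 to 11374 CPM in EA and 22391 to 24568 CPM in DMSO libraries. Summed markers were 1.17 to 2.27 CPM in EA and 3.001 to 3.27 CPM in DMSO libraries for leukocytes, where PTPRC and CD3E were at 0. They were 3.02 to 3.92 CPM in EA and 2.32 to 2.44 CPM in DMSO libraries for endothelial cells, where 2 of 3 markers were in the table: VWF was higher with EA (log2 fold change 1.53) and CDH5 lower (-1.94). For fibroblasts, where COL1A2 was at 0, they were 4.61 to 6.34 CPM in EA and 16.4 to 17.6 CPM in DMSO libraries. The lower hepatocyte sum in EA libraries stands beside every result below and its part in them was not tested; in a bulk sample fewer cells of a kind and less RNA per cell cannot be told apart.

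LINC-named genes took a larger share of the reads in cells given EA. The members held 0.319%, 0.301% and 0.274% of all reads in the EA libraries, against 0.101%, 0.104% and 0.105% in the DMSO libraries, and the groups did not overlap. The mean share was 0.298 ± 0.0228% in EA and 0.103 ± 0.00233% in DMSO libraries (SD, n = 3 each). The read minimum feeds this share, because some members passed it only through their EA reads. Over all 1776 LINC-named genes, with no minimum, the share was 0.309 ± 0.023% in EA and 0.108 ± 0.00236% in DMSO libraries. Over the members with at least 50 reads in each group it was 0.167 ± 0.01% in EA and 0.0979 ± 0.00232% in DMSO libraries. Much of the difference lay in LINC01705, LINC02365 and LINC00520: without these, the share was 0.167 ± 0.0128% in EA and 0.0976 ± 0.00215% in DMSO libraries. LINC01705 alone supplied 18.1% to 19.6% of the members' reads in EA libraries. In DMSO libraries the most read member was LINC00261, with 8.65% to 9.22%. Over all 1776 symbols, 518, 536 and 552 LINC-named genes had at least 1 read in the EA libraries, against 411, 394 and 416 in the more deeply sequenced DMSO libraries.

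Most members differed between the groups, as did most genes. By the quasi-likelihood F test of edgeR, with Benjamini-Hochberg adjustment over all 15648 genes tested, 72 members (45.9%) were higher with EA, 56 (35.7%) were lower and 29 were not called at an adjusted p under 0.05. Of all tested genes, 81% were called, 40.5% higher and 40.5% lower, so the share of members called, 128 of 157 (81.5%), was near that of all genes and says nothing particular about them. The EA and DMSO libraries did not overlap in CPM for 129 members (82.2%), against 82.9% of all tested genes. The median log2 fold change was 0.35 over the members and 0.00 over all tested genes. Setting members at 0 reads in DMSO to their lower bound left it at 0.35, as it had to, because every bound lies above the median.

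The members' differences were wide. A log2 fold change of 3 or more was called for 27 members (17.2%), against 6.45% of all tested genes, and one of -3 or below for 8 members (5.10%), against 2.54%. The width was not particular to the members. Of 543 tested genes of the lincRNA class outside them, 19.9% were called at 3 or more and 4.97% at -3 or below. At a log2 fold change of 1 or more the members numbered 56 (35.7%), against 23.4% of all tested genes, and at -1 or below 36 (22.9%), against 21.5%. The read minimum enters these counts, because a gene with few reads in 1 group reached 100 reads only through the other and then had to differ. All 30 members with under 50 reads in DMSO were higher with EA, and 21 of the 27 with under 50 reads in EA were lower. Among the 100 members with at least 50 reads in each group, 42 were higher, 35 lower and 23 not called. Of these members 4% were at a log2 fold change of 3 or more and 3% at -3 or below, against 6.45% and 2.54% of all tested genes. A minimum in each group also holds back large folds. Of the 4252 tested genes of any kind with 100 to 1000 reads, 74.7% were called, 10.4% were higher by a log2 fold change of 3 or more, and the median was 0.14.

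**Figure D1:**
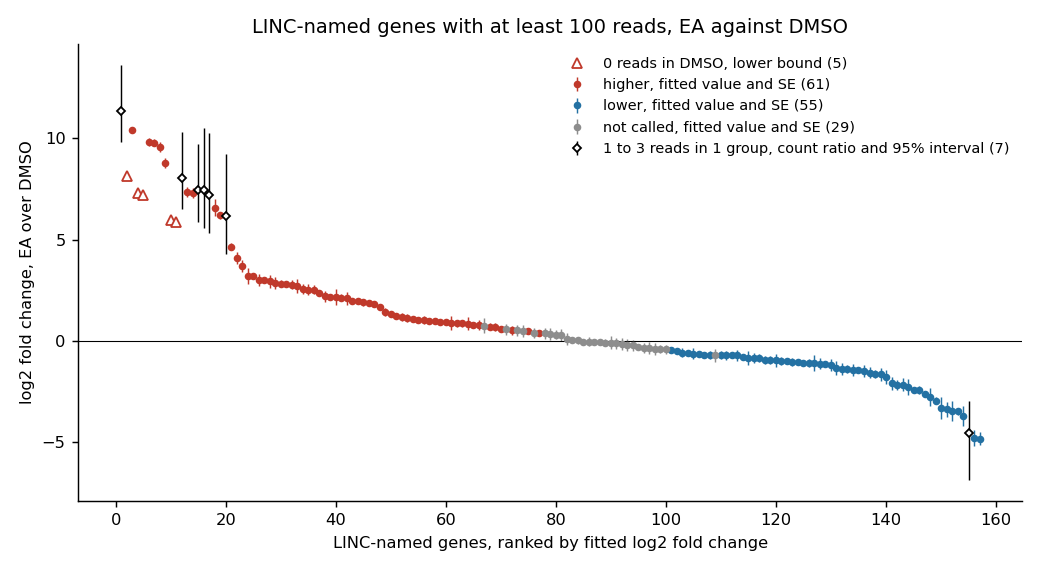
Log2 fold change (EA over DMSO, vertical axis) of the 157 LINC-named genes, ranked along the horizontal axis by the fitted value. Circles with bars are fitted values ± SE in red (higher), blue (lower) and grey (not called), triangles are lower bounds for the 5 genes with 0 reads in DMSO, and diamonds are count ratios with 95% intervals for 7 genes with 1 to 3 reads in 1 group. The curve is longer at the upper end, where 27 genes lie at 3 or more, against 8 at -3 or below.

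In all, 5 members were read in EA libraries only, and none in DMSO libraries only. LINC02404 had 262, 264 and 93 reads in the EA libraries and 0 in each DMSO library. Counting 3 reads over the DMSO group as the floor, it was at least 283.9-fold higher with EA, and EA replicate 3 was the low library. Its adjusted p was 0.00922 by edgeR's quasi-likelihood F test (Benjamini-Hochberg), and 0.0558 when genes with few reads were kept in the fit. Over all alternatives its adjusted p lay between 1.73e-182 and 0.0558. LINC02462 had 90, 85 and 168 reads in EA libraries (at least 157.3-fold higher), with EA replicate 3 the highest. LINC02154, on the X chromosome, had 77, 107 and 134 reads in EA libraries (at least 145.8-fold higher). No role that could be stated with certainty is known for these 3. LINC00707, studied as a growth-promoting RNA in several cancers, had 30, 43 and 65 reads in EA libraries and was at least 63.3-fold higher. LINC02539, beside TNFAIP3, had 41, 49 and 39 reads in EA libraries and was at least 59.2-fold higher. Of these 4, LINC02462 had the largest adjusted p, 5.41e-07 by edgeR's quasi-likelihood F test (Benjamini-Hochberg). All 5 genes reached the read minimum through their EA reads only, so they had to differ. Their adjusted p values are descriptions and add no support. A count of 0 in 1 DMSO library allows up to 0.117 to 0.130 CPM, so these genes were not detected at this depth. These floors, and the count intervals below, cover counting error only.

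A further 6 members had 1 to 3 reads over the DMSO group. LINC02582 had 1736, 1715 and 2301 reads in EA libraries and 1 read in each DMSO library, a ratio of depth-scaled counts of 2638 (95% exact interval 902 to 12795). LINC01164 had 177, 184 and 218 reads in EA libraries and 2, 0 and 1 in DMSO libraries, a ratio of 266 (90.4 to 1291). In both, every EA library lay far above every DMSO library, and no overlap was a condition of naming them. The ratio was 175 (59.5 to 853) for LINC00622, 175 (48.1 to 1456) for LINC02551, 149 (40.6 to 1235) for LINC02178 and 72.9 (19.7 to 609.9) for LINC00565. LINC00565 is also named SWINGN, for an RNA that interacts with the SWI/SNF chromatin remodeller near the GAS6 gene. These 4 genes were named after their values had been seen. All 6 reached the read minimum through their EA reads only, so they had to differ.

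LINC01705 had the smallest p of the members and the highest level per length with EA. Its level was 594, 590 and 502 CPM in the EA libraries, against 0.467, 0.217 and 0.511 CPM in the DMSO libraries. The mean was 562 ± 52.1 CPM in EA and 0.399 ± 0.158 CPM in DMSO libraries (SD, n = 3 each), and the groups were separated by a wide gap. The log2 fold change was 10.42 (SE 0.15, edgeR quasi-likelihood, Benjamini-Hochberg adjusted p = 5.5e-16). With 30 reads over the DMSO group, LINC01705 reached the read minimum only through its EA reads and had to differ. Its p is a description and adds no support. Divided by the length of its merged exons, 562 bases, its level in EA libraries was 1000.1 CPM per kb, followed by LINC02365 at 357.6 and LINC02313 at 111.9 CPM per kb. In DMSO libraries the highest levels per length were 44.6 CPM per kb for LINC02365, 32.0 for LINC02313 and 29.8 for LINC02575. LINC02474, 56.7 kb from LINC01705 on the other strand, was named after its values had been seen. It had 2062, 2043 and 1646 reads in EA libraries against 9, 18 and 23 in DMSO libraries, with no overlap, and a log2 fold change of 7.31 (SE 0.25).

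A further 5 members with the largest increases had under 1 CPM in every DMSO library. LINC00520, whose RNA has been studied in cancers and in endothelial cells, stood at 319.6, 300.04 and 250.9 CPM in EA libraries, against 0.350, 0.174 and 0.433 CPM in DMSO libraries. The difference was 9.78 on the log2 scale (SE 0.17). LINC02407 stood at 52.0, 53.1 and 57.2 CPM in EA libraries, and had 2, 0 and 2 reads in DMSO libraries. Fitted against a group near the floor, the log2 fold change was 9.82 (SE 0.21). LINC01322, which starts 9.85 kb from SLITRK3 on the other strand, stood at 110.4, 104.8 and 80.2 CPM in EA libraries and had 5, 1 and 3 reads in DMSO libraries. The fitted log2 fold change was 9.59 (SE 0.24), and SLITRK3 itself had 0 reads in every library. LINC00452 had 430, 471 and 509 reads in EA libraries and 0, 2 and 2 in DMSO libraries, with a log2 fold change of 8.77 (SE 0.25), or 8.18 without DMSO replicate 1. LINC01088 stood at 43.1 ± 8.70 CPM in EA and 0.260 ± 0.0971 CPM in DMSO libraries (SD, n = 3 each), with a log2 fold change of 7.36 (SE 0.25). In all 5 the lowest EA library was above the highest DMSO library, and the largest adjusted p by edgeR's quasi-likelihood F test (Benjamini-Hochberg) was 4.62e-11, for LINC01088. Both a call and no overlap were conditions of naming genes by the size of their change. All 5 also reached the read minimum through their EA reads only, so they had to differ. Their adjusted p values are descriptions and add no support.

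Some members already expressed in DMSO cells were also higher with EA, and others were lower. Of the 100 members with at least 50 reads in each group, 42 were higher, 35 lower and 23 not called. The share called, 77%, was near the 81% of all tested genes (40.5% higher and 40.5% lower) and says nothing particular about them. LINC02365 had the highest level per length of the members in DMSO libraries, and was higher with EA. It stood at 445, 459 and 456 CPM in EA libraries, against 54.5, 58.2 and 56.9 CPM in DMSO libraries, far from overlapping. Its log2 fold change was 3.004 (SE 0.07, edgeR quasi-likelihood, Benjamini-Hochberg adjusted p = 1.05e-14). LINC00513 was higher with 84.5, 69.6 and 62.3 CPM in EA libraries, against 33.5, 37.1 and 32.3 CPM in DMSO libraries, without overlap. The log2 fold change was 1.07 (SE 0.10).

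**Figure D2:**
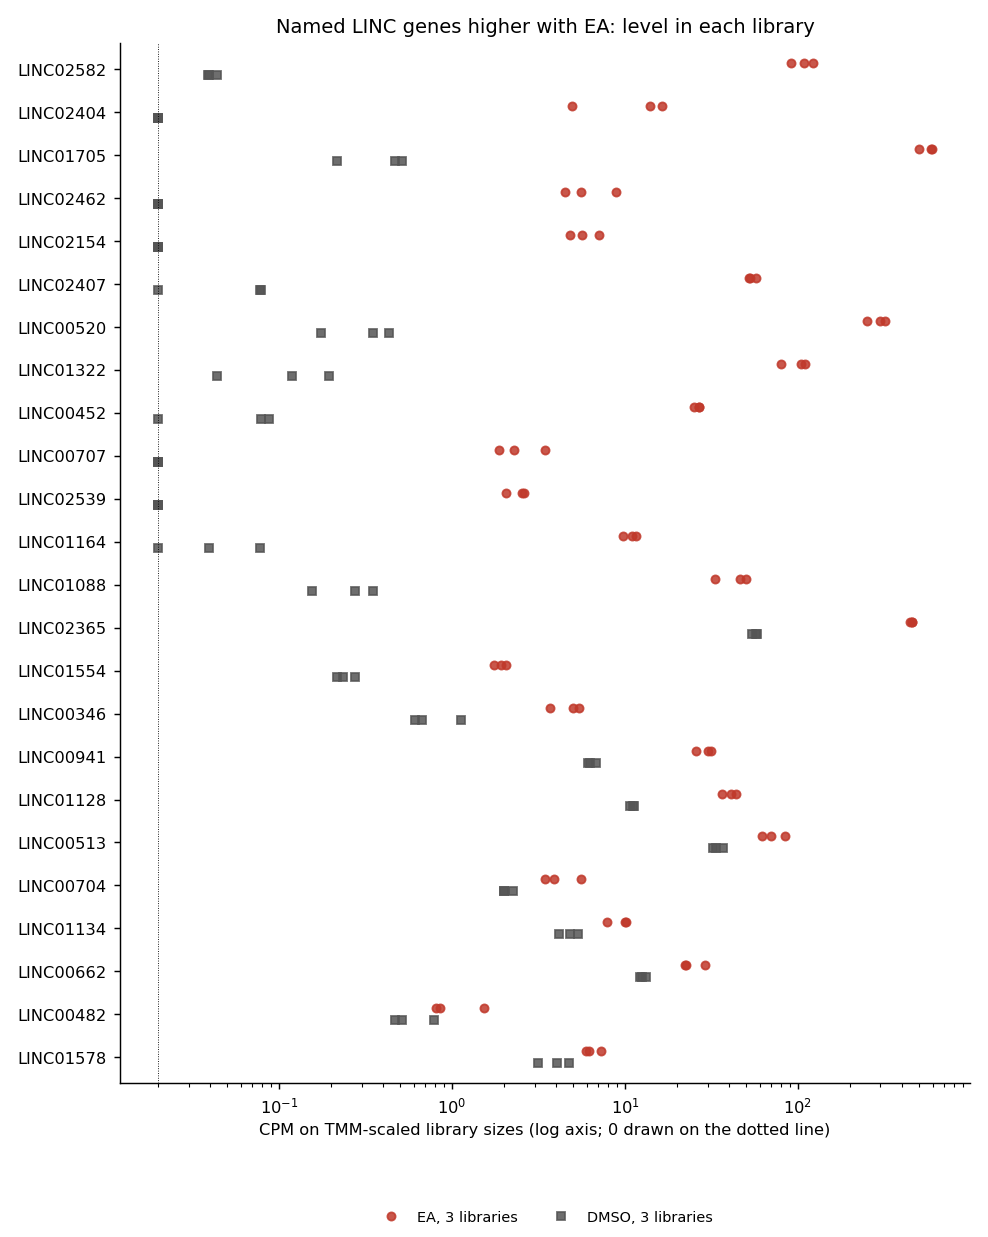
Level of each named LINC gene that was higher with EA (rows, ordered by fitted fold change) in CPM on a log axis, with a red circle for each of the 3 EA libraries and a grey square for each of the 3 DMSO libraries. A value of 0 is drawn on the dotted line, where all 3 DMSO libraries of LINC02404, LINC02462, LINC02154, LINC00707 and LINC02539 stand. The groups do not overlap in any row, which was a condition of naming for rows named by the size of their change.

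Among the members that fell with EA, none was silent in all EA libraries. LINC00261 lies beside FOXA2, a transcription factor of endoderm and liver, and has a described part in endoderm differentiation. It stood at 18.0, 15.2 and 18.6 CPM in EA libraries, against 93.9, 89.9 and 91.7 CPM in DMSO libraries. The log2 fold change was -2.41 (SE 0.09, edgeR quasi-likelihood, Benjamini-Hochberg adjusted p = 1.24e-12), the smallest p among members that fell. FOXA2 stood at 40.3 ± 4.90 CPM in EA and 52.1 ± 2.43 CPM in DMSO libraries (SD, n = 3 each), a log2 fold change of -0.37 (SE 0.09). In the GENCODE 29 annotation 86.1% of the exon bases of LINC00261 are shared with AL121722.1, a gene on the same strand that is not analysed here.

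LINC01146 is also named HISLA, for an RNA reported to stabilise HIF-1α in tumour cells when macrophages deliver it. It had 2.61, 2.60 and 10.3 CPM in EA libraries, against 56.6, 56.6 and 60.0 CPM in DMSO libraries. The log2 fold change was -3.46 (SE 0.51, edgeR quasi-likelihood, Benjamini-Hochberg adjusted p = 0.002), and -4.49 without EA replicate 3, the highest EA library. LINC01482, which lies over FAM20A on the other strand, had 0.498, 0.636 and 3.33 CPM in EA libraries, against 14.6, 15.4 and 16.3 CPM in DMSO libraries. Here the log2 fold change was -3.33 (SE 0.54, edgeR quasi-likelihood, Benjamini-Hochberg adjusted p = 0.00195), and -4.76 without EA replicate 3. LINC00242 had 1.56, 1.06 and 1.48 CPM in EA libraries, against 15.3, 14.5 and 15.7 CPM in DMSO libraries, with a log2 fold change of -3.48 (SE 0.16). In all 3 genes every EA library lay below every DMSO library, which was a condition of naming genes by the size of their change.

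The most negative fitted changes belonged to genes with few reads left with EA. LINC02413 had 7, 5 and 2 reads in EA libraries and 232, 182 and 150 in DMSO libraries, with a log2 fold change of -4.84 (SE 0.32). LINC01091 had 1, 3 and 1 reads in EA libraries and 70, 53 and 80 in DMSO libraries. Its log2 fold change was -4.79 (SE 0.40), or -5.45 without EA replicate 2. Neither gene's groups overlapped, but a call and no overlap were conditions of naming genes by the size of their change. LINC02015 had 0, 1 and 2 reads in EA libraries and 36, 36 and 26 in DMSO libraries, a ratio of 0.0421 (95% exact interval 0.00854 to 0.127). LINC00870 had 2, 0 and 5 reads in EA libraries and 56, 36 and 38 in DMSO libraries. The log2 fold change was -3.69 (SE 0.50), with -3.11 without EA replicate 2 and -4.83 without EA replicate 3. LINC00494 had 3, 2 and 6 reads in EA libraries and 51, 49 and 62 in DMSO libraries, with a log2 fold change of -3.38 (SE 0.36). The largest adjusted p of these 5 was 6.09e-06, for LINC00870, by edgeR's quasi-likelihood F test (Benjamini-Hochberg). All 5 reached the read minimum only through their DMSO reads, so they had to differ. Their adjusted p values are descriptions and add no support.

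**Figure D3:**
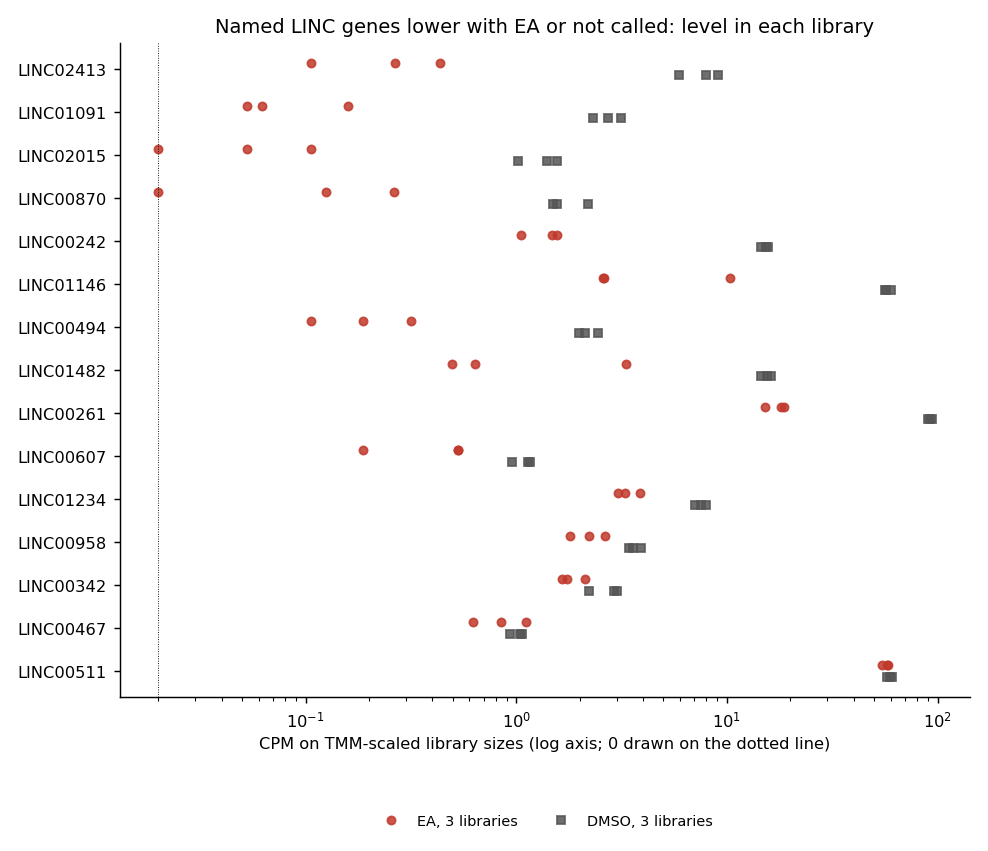
Level of each named LINC gene that was lower with EA or not called (rows, most negative fold change at the top) in CPM on a log axis, with a red circle for each of the 3 EA libraries and a grey square for each of the 3 DMSO libraries, and 0 drawn on the dotted line. The red circles lie left of the grey squares in every row except LINC00467 and LINC00511, where the groups overlap, and in LINC01146 and LINC01482 one EA library stands apart at 10.3 and 3.33 CPM.

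Members with a described role were named from lists, whatever the size of their change. Of 26 LINC-named genes listed as studied in cancers, 20 were in the table and 11 were members: 7 were higher with EA, 3 lower and 1 not called. Of all tested genes, 81% were called, 40.5% higher and 40.5% lower, so counts over 11 genes say nothing particular about this list. LINC00520 and LINC00707 were members only through their EA reads. Beside LINC00520 and LINC00707, the higher ones included LINC00346, also named PRECSIT, a p53-regulated RNA of squamous cell carcinoma. It had 3.67, 4.98 and 5.39 CPM in EA libraries, against 1.13, 0.609 and 0.668 CPM in DMSO libraries, and a log2 fold change of 2.53 (SE 0.26). LINC00941, described in epidermal progenitors and in cancers, averaged 29.1 ± 2.96 CPM in EA and 6.38 ± 0.341 CPM in DMSO libraries (SD, n = 3 each), with a log2 fold change of 2.19 (SE 0.11). LINC00704, also named MANCR for its association with mitosis, averaged 4.28 ± 1.11 CPM in EA and 2.08 ± 0.154 CPM in DMSO libraries, with a log2 fold change of 1.03 (SE 0.21). LINC01134 and LINC00662 each had a log2 fold change of 0.96 (SE 0.15 and 0.11). No library of these 5 genes crossed between the groups, and the largest adjusted p was 0.000332, for LINC00704, by edgeR's quasi-likelihood F test (Benjamini-Hochberg).

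The 3 lower members of that list were LINC01234, LINC00958 and LINC00342. LINC01234 averaged 3.40 ± 0.416 CPM in EA and 7.53 ± 0.427 CPM in DMSO libraries (SD, n = 3 each), with a log2 fold change of -1.14 (SE 0.15). LINC00958 averaged 2.22 ± 0.419 CPM in EA and 3.64 ± 0.261 CPM in DMSO libraries, with a log2 fold change of -0.70 (SE 0.19, edgeR quasi-likelihood, Benjamini-Hochberg adjusted p = 0.00375). Neither gene's groups overlapped. LINC00342 had 34, 31 and 33 reads in EA libraries and 77, 51 and 74 in DMSO libraries, a log2 fold change of -0.57 (SE 0.22). Its adjusted p was 0.024 by edgeR's quasi-likelihood F test (Benjamini-Hochberg) and 0.0945 by DESeq2, and it lost the call without EA replicate 2 (0.0756), DMSO replicate 1 (0.0764) or DMSO replicate 3 (0.0648). Over all alternatives its adjusted p lay between 0.0073 and 0.0945. LINC00511, a widely studied cancer RNA, was among the 6 most read members and was not called. It had 58.3, 57.3 and 54.4 CPM in EA libraries, against 59.2, 61.0 and 57.7 CPM in DMSO libraries, which overlap, and a log2 fold change of -0.07 (SE 0.07, edgeR quasi-likelihood, Benjamini-Hochberg adjusted p = 0.389). With no filter on low counts it was called, with a log2 fold change of -0.20 and an adjusted p of 0.0433, the lowest of a range that reached 0.853 over the alternatives.

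Of 8 genes listed for endoderm or liver, 3 were members, and beside LINC00261 and LINC01146, which fell, LINC01554 rose. LINC01554, an RNA enriched in liver and studied in hepatocellular carcinoma, had 33, 36 and 33 reads in EA libraries and 6, 5 and 7 in DMSO libraries, with a log2 fold change of 2.94 (SE 0.31). LINC01554 reached the read minimum only through its EA reads, so it had to differ. The other 5 listed genes had at most 26 reads over all libraries. Of 10 loci listed as coding for a small protein, 3 were in the table and only LINC00467 was a member. Its groups overlapped, with 10, 16 and 21 reads in EA libraries and 24, 24 and 27 in DMSO libraries, and its log2 fold change was -0.22 (SE 0.30, edgeR quasi-likelihood, Benjamini-Hochberg adjusted p = 0.503). Of 3 genes listed as regulated by p53 or cAMP, 2 were in the table and none was a member, and LINC00475 was below the minimum with 63 reads in EA and 10 in DMSO libraries. Of 6 genes listed for other described roles, 4 were in the table and both members rose, where 40.5% of all tested genes were called higher. LINC01578, also named CHASERR, whose locus represses the neighbouring chromatin remodeller gene CHD2, averaged 6.45 ± 0.714 CPM in EA and 3.97 ± 0.785 CPM in DMSO libraries (SD, n = 3 each), with a log2 fold change of 0.70 (SE 0.17, edgeR quasi-likelihood, Benjamini-Hochberg adjusted p = 0.00164). LINC01128 averaged 40.4 ± 3.77 CPM in EA and 11.004 ± 0.275 CPM in DMSO libraries (SD, n = 3 each), with a log2 fold change of 1.88 (SE 0.10).

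The EA libraries varied more among themselves in the members than the DMSO libraries did. The median log2 range within a group, with 0.1 CPM added, was 0.43 for members in EA and 0.32 in DMSO libraries, against 0.29 in EA and 0.17 in DMSO libraries for all tested genes. Members with 0 reads in DMSO libraries had a range of 0 there. The median of reads was 414 for members and 2355.5 for all tested genes, and the EA libraries were less deep. The part of low counts and depth in these ranges was not tested. EA replicate 3 lay over 2-fold above the mean of the other EA libraries in 5 members and over 2-fold below it in 4, which is 5.73% of members and compares with 3.30% of all tested genes. In the other libraries the share of members was 0.00% to 3.18%. LINC01482, LINC01146 and LINC00668 were high in EA replicate 3 and LINC02404 was low. LINC00668, chosen here after its values were seen, had 8, 7 and 37 reads in EA libraries and 136, 160 and 187 in DMSO libraries. Leaving out EA replicate 3 kept the call and direction of 126 of the 128 called members, and lost LINC00482 and LINC01876.

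**Figure D4:**
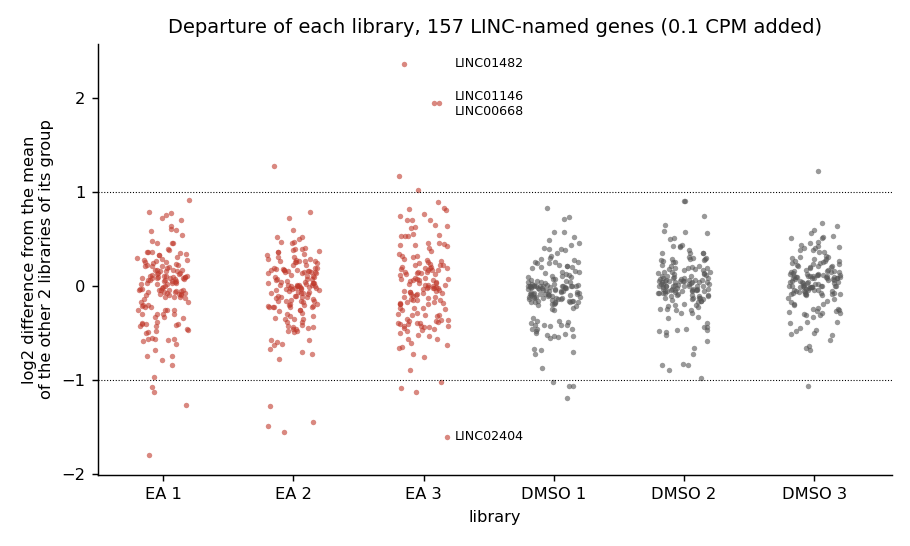
Log2 difference of each library from the mean of the other 2 libraries of its group (vertical axis, 0.1 CPM added) for the 157 LINC-named genes, with 1 point a gene, EA libraries in red and DMSO libraries in grey, and dotted lines at a 2-fold difference. In EA replicate 3, 9 genes lie past the lines, among them LINC01482, LINC01146 and LINC00668 above and LINC02404 below.

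The read minimum had members close on both sides. Just inside it, LINC00482 had 13, 16 and 29 reads in EA libraries and 12, 18 and 13 in DMSO libraries, LINC02015 had 101 reads in all, and LINC00607 had 3, 10 and 10 reads in EA libraries and 30, 22 and 29 in DMSO libraries. Just outside it, LINC00705 had 81 reads in EA and 14 in DMSO libraries, LINC01780 had 4 reads in EA and 91 in DMSO libraries, and LINC02428 had 45 reads in EA and 49 in DMSO libraries. LINC00482 had a Benjamini-Hochberg adjusted p of 0.0323 by edgeR's quasi-likelihood F test, and lost the call under DESeq2 (0.0913), with no filter on low counts (0.0783) and without EA replicate 3 (0.251), DMSO replicate 1 (0.130) or DMSO replicate 3 (0.115). It was not tested under the filter of 1 CPM in 3 libraries, and over the other alternatives its adjusted p lay between 0.0249 and 0.251.

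Many members lie near or across other genes, and no source used here states whether the counting used strand, which means that reads of a gene and of one overlapping it on the other strand cannot be told apart. In the GENCODE 29 annotation 82 of the 157 members overlapped another gene, 52 shared exon bases with one, and 39 did so with a gene on the opposite strand. The members LINC01270 and LINC01271 share 1333 exon bases on opposite strands, and LINC00667 and LINC00526 share 773. The nearest protein-coding gene was tested for 116 members, and both genes were called in 82 pairs. In 37 pairs both were higher with EA and in 16 both were lower, in 10 the LINC gene alone was higher and in 19 the coding gene alone was higher. The same direction was thus seen in 53 of 82 pairs (64.6%), and in 58.8% of 6584 pairs of neighbouring protein-coding genes. Of the 47 such members that were higher with EA, 37 had a higher neighbour (78.7%), and so had 19 of the 35 that were lower (54.3%). Pearson's r of the 2 log2 fold changes was 0.30 and Spearman's rho 0.29 over 116 pairs, and 0.22 and 0.18 over 9533 pairs of coding genes. Within 50 kb or overlapping, r was 0.40 over 83 pairs, and beyond that it was 0.13 over 33 pairs. All pairs come from the same 6 libraries, and some share a neighbour.

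Pairs that moved together were named after their values had been seen. LINC01705 and LINC02474 have DUSP10, a phosphatase of stress-activated MAP kinases, as their nearest coding gene, 299.5 and 224.2 kb away. DUSP10 averaged 35.8 ± 0.398 CPM in EA and 7.54 ± 0.453 CPM in DMSO libraries (SD, n = 3 each), a log2 fold change of 2.25 (SE 0.09). LINC00452 lies 24.2 kb from GAS6, a ligand of the TAM receptor kinases, and 3.002 kb from LINC00565. GAS6 averaged 2.48 ± 0.154 CPM in EA and 0.271 ± 0.103 CPM in DMSO libraries, a log2 fold change of 3.17 (SE 0.31). LINC01564 starts 11.4 kb from GCLC, the catalytic subunit of the first enzyme of glutathione synthesis, on the other strand. LINC01564 averaged 9.33 ± 1.30 CPM in EA and 1.30 ± 0.248 CPM in DMSO libraries, and GCLC 1137 ± 43.7 CPM in EA and 167 ± 4.52 CPM in DMSO libraries. Their log2 fold changes were 2.83 (SE 0.19) and 2.77 (SE 0.07). LINC01088 overlaps NAA11 on the other strand, which averaged 2.47 ± 0.866 CPM in EA and 0.0131 ± 0.0227 CPM in DMSO libraries, where it was close to the floor.

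Of the 43 members transcribed away from their nearest coding gene, 13 started within 5 kb of its start. LINC01124 starts 0.784 kb from SP5, a Wnt target gene, and averaged 1.79 ± 0.633 CPM in EA and 13.99 ± 0.729 CPM in DMSO libraries (SD, n = 3 each). Its log2 fold change was -2.94 (SE 0.18) and that of SP5 -1.63 (SE 0.08). LINC00941 starts 0.216 kb from CAPRIN2, which had a log2 fold change of 1.62 (SE 0.08), and LINC01137 0.141 kb from ZC3H12A, a regulator of inflammatory RNAs. LINC01137 had a log2 fold change of 2.20 and ZC3H12A of 0.55. LINC01134 starts 0.079 kb from C1orf174 and went the other way, with 0.96 against -0.24 for C1orf174. Members that fell beside a coding gene that rose included LINC01277 at -1.66, beside HIVEP2 at 3.67, LINC02008 at -1.64, 224 kb from GBE1 at 3.14, and LINC02413, whose nearest coding gene EEA1 had 1.28.

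**Figure D5:**
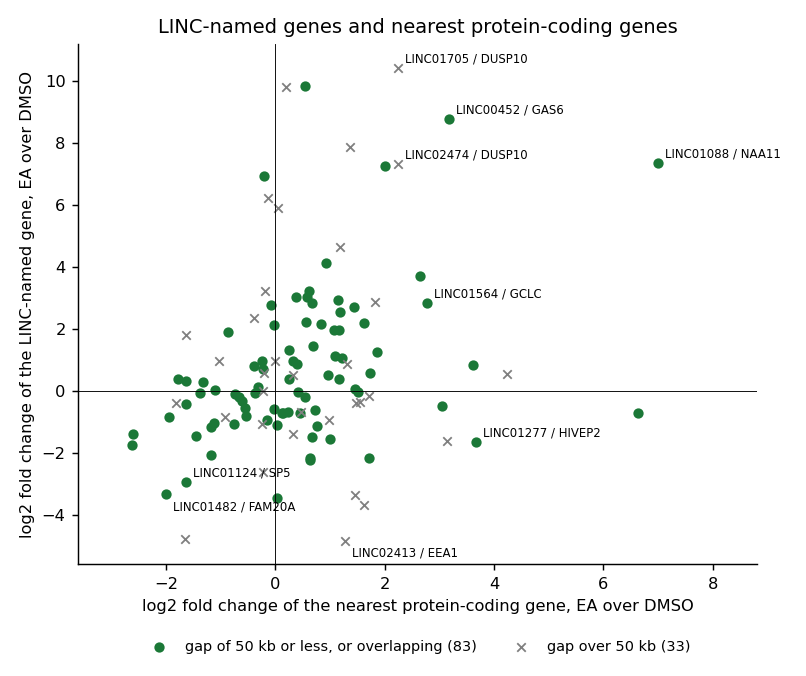
Log2 fold change (EA over DMSO) of 116 LINC-named genes (vertical axis) against that of the nearest tested protein-coding gene (horizontal axis), with green circles for the 83 pairs within 50 kb or overlapping and grey crosses for the 33 pairs further apart. LINC genes with 0 reads in DMSO are drawn at their lower bound, and points stand on every side of both zero lines, with LINC01705 and DUSP10, LINC00452 and GAS6, and LINC01088 and NAA11 high on both axes.

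Pairs of members lying close together were also picked after their values had been seen. LINC00313 and LINC00319, 8.20 kb apart on chromosome 21, had log2 fold changes of -2.25 and -2.17, while SIK1 beside them had 0.63. LINC00242 and LINC00574, which share exon bases, were both lower, and LINC00431 and LINC00346, 95.5 kb apart on chromosome 13, were both higher. LINC01270 and LINC01273, 116.0 kb apart on chromosome 20, went opposite ways, at -1.40 and 0.97.

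Other non-coding groups of the table are given for scale. Of 543 tested genes of the lincRNA class that were not members, 293 were higher with EA and 120 lower, with a median log2 fold change of 0.73. Of 372 tested genes with an antisense symbol, 162 were higher and 89 lower, with a median of 0.33. Of 18 tested hosts of small nucleolar RNAs with SNHG symbols, 5 were higher and 10 lower (median -0.42), and of 18 tested microRNA host genes, 10 were higher and 2 lower (median 0.77). Protein-coding genes had 4931 higher and 5621 lower of 12680 tested, with a median of -0.09. The read minimum applied to the members alone, so their counts and those of these groups are not on the same footing. The median length of merged exons was 1990.5 bases for members called higher, 2826 for those called lower and 2250 for those not called, and the median of the largest exon number was 4 in each class.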

How the data were processed

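The values the authors deposited are raw counts of reads per gene, whole and unscaled, for 52408 genes in 6 HepG2 libraries. Tools that the submitters' processing notes name are HTSeq 0.6.1, HISAT (no version), cutadapt 1.9.1 and bcl2fastq 2.17.1.14, with the hg19 build; no source used here gives the annotation release, strand setting or filters. From these counts, filterByExpr kept 15648 genes, TMM scaled the libraries, and the groups were compared with edgeR 4.0.16 in R 4.3.3 (quasi-likelihood F test, robust, Benjamini-Hochberg adjustment over all genes tested), a call being an adjusted p under 0.05. The common biological coefficient of variation was 7.96%. CPM use TMM-scaled library sizes, and the SE is the log2 fold change over the square root of F. All 157 members passed the filter. The read minimum uses the same counts as the comparison, so counts over the members are descriptions.

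Members and lists were chosen with earlier results of these data known. Named were members at 0 in 1 group, the 8 largest changes each way among those with reads in both groups and no overlap, the 6 most read, the smallest p each way, members of the role lists and those at the read minimum; others are said to be chosen after seeing values. Against 0 reads a fold is a bound from 3 reads over the group, and with 1 to 3 reads a ratio with its 95% exact interval. Neighbours and exon lengths came from GENCODE 29, which held all 157 identifiers. Alternatives were DESeq2 1.42.0, other scalings and filters, thinning, other read minimums, a replicate block and each library left out; the test was checked on simulated data.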

Additional observations from a re-analysis of the deposited data

How the results depend on the processing

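No called member changed direction under any alternative run. Calls and direction were kept by 120 (DESeq2, or without DMSO replicate 1) to 128 (library size only) of 128 called members, and the filter of 1 CPM in 3 libraries left 6 of the 128 untested. Members higher and lower numbered 70 and 50 under DESeq2, 72 and 55 under RLE scaling and after thinning to equal depth, 71 and 50 under the stricter filter, and 68 and 59 with no filter, which tested 32015 genes. With a library left out, members higher numbered 68 to 74 and members lower 52 to 60; all genes higher numbered 6104 to 6794 and all genes lower 6167 to 6819.

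The median log2 fold change of the members depended on which genes entered. It was 0.35 as reported, 0.54 under the filter of 1 CPM in 3 libraries, 0.22 with no filter, where the median of all genes tested was 0.25, and 0.31 after thinning. With a library left out it lay between 0.22 (without EA replicate 3) and 0.36 (without DMSO replicate 3). It was 0.57 at a minimum of 50 reads, 0.70 at 200 reads and 0.57 at 100 reads counted after thinning. At 200 reads the rule found 108 members, 59 higher and 37 lower. A minimum of 50 reads in each group, chosen after seeing the data, left 100 members, 42 higher and 35 lower, with a median of 0.30; both minimums admit fewer genes by construction.

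The labels do not state that replicate numbers pair the libraries. Same-numbered libraries had correlations of -0.08, 0.03 and -0.02 in their deviations from the group means. These cannot decide the pairing, because paired libraries may share little variation. With the replicate number as a block, 72 members were higher and 55 lower, and 6246 of all genes were higher and 6291 lower. Depth limits the genes near 0 in DMSO libraries, whose folds are bounds or wide ratios.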
